A study of Mus musculus with 16 samples.

Results

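The livers of concanavalin A-injected mice that received adipose tissue derived stem cells were compared between a 5 h and a 2 h harvest. The 6 livers were taken by their treatment labels from the 16 samples of the series. All mice were female C57Bl/6 mice injected with 300 µg of concanavalin A. The 2 h group (mice 8, 9 and 10) got 100000 cells into the tail vein straight after the lectin, and the 5 h group (mice 1, 2 and 3) got them 3 h after it, so that in both groups 2 h passed between cells and harvest. The cells had been expanded in culture from inguinal fat of C57Bl/6 mice. The time since concanavalin A and the schedule of the cells differ together and cannot be told apart in this comparison. Livers from 6 other mice that got concanavalin A without cells, 3 harvested at 2 h (mice 11, 12 and 13) and 3 at 5 h (mice 4, 5 and 6), share no animal with it and are set beside it where they help to read it. No mouse without concanavalin A was used here, and the labels do not give the clock time of injection or harvest.

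Concanavalin A is a lectin from jack beans, and in the liver it stimulates T cells and natural killer T cells. The interferon-gamma, TNF and interleukins they release act on hepatocytes, Kupffer cells and endothelium, and an acute hepatitis follows within hours. Interferon-gamma acts on guanylate binding proteins, immunity-related GTPases and the antigen presentation machinery, while type I interferon acts through the ISGF3 complex on antiviral genes of the Ifit, Oas and Mx families. Interleukin 6 switches hepatocytes to acute phase proteins through STAT3. The liver also carries a strong circadian clock, whose PAR bZIP output factors (Dbp, Tef, Hlf) and metabolic targets change over the day.

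Each array gave a spot intensity, and all values below are on a log2 scale after subtraction of that array's 75th percentile, so that a difference of 1 is a 2-fold difference. Per array, 52.1% to 62.5% of spots exceeded background by the scanner software's own test, and 0 were saturated. All 18 hepatocyte markers listed were measured, and albumin, Alb, lay between 10.10 and 10.80 in the 6 livers. Mouse 10 stood apart from the other 2 h livers given cells. Across all genes its values correlated with those of mice 8 and 9 at r = 0.962 and 0.974, while mice 8 and 9 correlated at 0.984. Its CC chemokine score (how far a typical member lies from its average in the 12 livers, as a median) was -2.50, against -0.29 and -0.20 in mice 8 and 9, and its neutrophil score was -1.82, against -0.17 and -0.39. Mouse 13 of the 2 h livers without cells lay close to it, at r = 0.984. List counts are therefore also given without mouse 10, and genes whose call was lost without it are named as such. The 12 livers lay on 3 slides, each with 1 liver of every group, and slide 2 held mouse 10. On every slide the 2 h livers lay at the first positions and the 5 h livers at the later ones, so that array position and harvest cannot be told apart.

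A gene was called when its adjusted p in limma was under 0.05. Of 14410 genes, 1274 rose (8.84%) and 1424 fell (9.88%) from 2 h to 5 h, and the median change over all genes was -0.08, so 47.2% of the called genes were higher. After another background correction, normexp, 574 rose and 261 fell, and 68.7% were higher. Of the 2698 calls of the main fit, 789 were kept after normexp, and 107 of these 2698 genes changed sign. The 3 livers of one harvest did not overlap with the 3 of the other in 6189 genes (42.9%). Without mouse 10, 713 genes rose (4.95%) and 593 fell (4.12%). Of the 2698 genes called with all livers, 1263 were among these, and all 2698 kept their sign. Without mice 10 and 13 together, 2875 genes were called and 2248 of the 2698 calls were kept. Leaving out mouse 2 or 3 alone gave 1348 and 1353 calls, so a drop of that size was not particular to mouse 10. The same held for single genes named below as lost without mouse 10. Ccl11 lost its call whichever treated liver was left out (limma, adjusted p = 0.052 to 0.153). Mmp13 and Gbp2 also lost theirs without mouse 1, 2 or 3 (limma, adjusted p = 0.053 to 0.075). The plot of list shares shows the lists that departed most from the shares of all genes. Among the rises they were interferon genes, acute phase proteins with their inducers, and neutrophil markers. Among the falls they were clock, glucose and cholesterol genes.

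**Figure D1:**
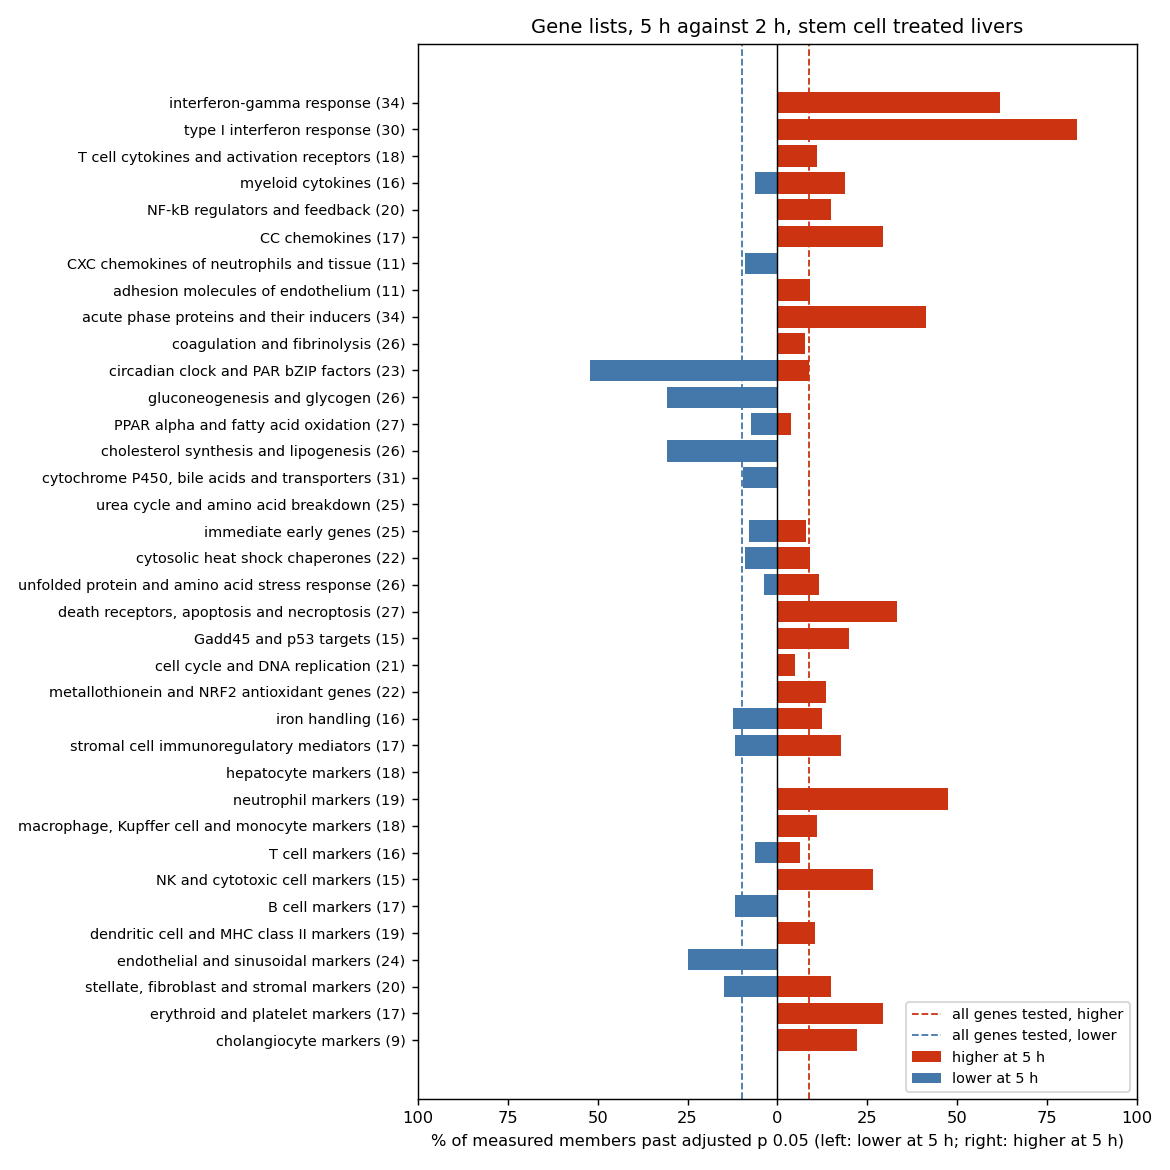
Share of the measured members of each of 36 gene lists that passed an adjusted p of 0.05, lower at 5 h to the left and higher at 5 h to the right, with the number of measured members in brackets. Dashed lines mark the shares of all 14410 genes, 9.88% lower and 8.84% higher. The type I interferon list reached 83.3% higher and the circadian clock list 52.2% lower.

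Antiviral genes driven by type I interferon rose nearly as a block. Of 30 measured members 25 rose and 0 fell, with a median change of 2.24, and the changes ran from -0.63 to 4.82. Ifit2, an antiviral protein with tetratricopeptide repeats, lay at -2.03, -1.90 and -1.61 in mice 8, 9 and 10 and at 2.60, 3.12 and 3.19 in mice 1, 2 and 3. The 2 harvests lay far apart in it, with a change of 4.82 ± 0.46 (standard error of the fit, adjusted p = 0.000369), a 28.2-fold difference. Its neighbour Ifit1 lay at -0.18, -0.22 and -0.47 at 2 h and at 3.72, 3.90 and 3.89 at 5 h, a rise of 4.13 ± 0.60 (adjusted p = 0.0024). The interferon-induced GTPase gene Mx1 was not well above background in any 2 h liver and was at least 8.31-fold higher at 5 h (limma, adjusted p = 0.000702). Here and below, a p-value beside such a bound comes from the fit to the values as read, those below background included. It does not test the bound. Cmpk2, a mitochondrial nucleotide kinase gene of the antiviral response, rose by 3.35 ± 0.26 from -1.41, -1.45 and -1.06 to 1.68, 2.35 and 2.10. Rsad2, which encodes viperin, rose by 3.21 ± 0.28 and the ubiquitin-like Isg15 by 2.65 ± 0.40, while Irf7, the transcription factor that amplifies type I interferon, rose by 1.06 ± 0.23. The members that did not pass were Ifi27l2a (-0.63), Irf9 (0.17), Oas1b (0.56, below background in both groups), Ddx58, the RNA sensor RIG-I (0.82), and Stat2 (1.06). Without mouse 10, 21 of the 30 rose and the median was 2.11. The median was 2.11, 2.37 and 2.28 within slides 1, 2 and 3, close to each other with and without mouse 10.

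Genes induced by interferon-gamma rose as well, but with a wider spread among the 2 h livers. Of 34 measured members 21 rose, 0 fell, and the median change was 2.38. Gbp2, a guanylate binding protein that attacks vacuoles of pathogens, lay at 3.29, 3.82 and 0.81 in mice 8, 9 and 10 and at 7.63, 7.27 and 7.38 in mice 1, 2 and 3. The 5 h livers lay close together and mouse 10 lay below the other 2 h livers, and the rise was 4.79 ± 1.27 (adjusted p = 0.0267). Without mouse 10 it was 3.87 and did not pass (adjusted p = 0.10). Ubd, a ubiquitin-like modifier also called FAT10, lay at -2.89, -2.05 and -3.21 at 2 h and at 1.71, 1.50 and 2.20 at 5 h. It rose by 4.52 ± 0.79 (adjusted p = 0.00512), and by 4.27 without mouse 10. The immunity-related GTPase gene Ifi47 rose by 4.19 ± 0.95 and Gbp9, a guanylate binding protein gene outside the list, by 4.29 ± 0.93, and neither passed without mouse 10 (adjusted p = 0.059 and 0.052). Cd274, which encodes the checkpoint ligand PD-L1, lay at 0.84, 1.10 and -1.06 at 2 h and at 3.94, 3.99 and 3.81 at 5 h, a rise of 3.62 ± 0.97 (adjusted p = 0.0285, and 0.11 without mouse 10).

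Other members of the same list had smaller changes. Psmb8, an immunoproteasome subunit, lay at 3.14, 3.18 and 3.53 at 2 h and at 4.34, 4.14 and 4.45 at 5 h, a rise of 1.03 ± 0.17 (adjusted p = 0.00409). Ciita, the master regulator of MHC class II genes, rose by 1.21 ± 0.19. Wars, a tryptophanyl-tRNA synthetase induced by interferon-gamma, rose by 1.78 ± 0.21. Inducible nitric oxide synthase, Nos2, was below background at 2 h and at least 1.53-fold higher at 5 h (limma, adjusted p = 0.0101), where 2 of 3 livers measured it. Several members with large differences did not pass, and their 2 h values were widely spread. Cxcl9, a chemokine for activated T cells, lay at 5.87, 6.48 and 1.97 at 2 h and at 8.93, 8.67 and 9.01 at 5 h (4.09 ± 1.53, adjusted p = 0.0896). Socs1, the feedback inhibitor of the pathway, lay at 2.60, 3.13 and -1.89 at 2 h and at 5.63, 5.59 and 5.64 at 5 h (4.34 ± 1.80, adjusted p = 0.12). Without mouse 10, 9 of 34 members rose and the median was 1.75. The median was 1.83, 3.38 and 1.57 within slides 1, 2 and 3, the largest on the slide that held mouse 10. With the 2 members that were below background at 2 h set at their bound, the median over all livers was 2.20.

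**Figure D2:**
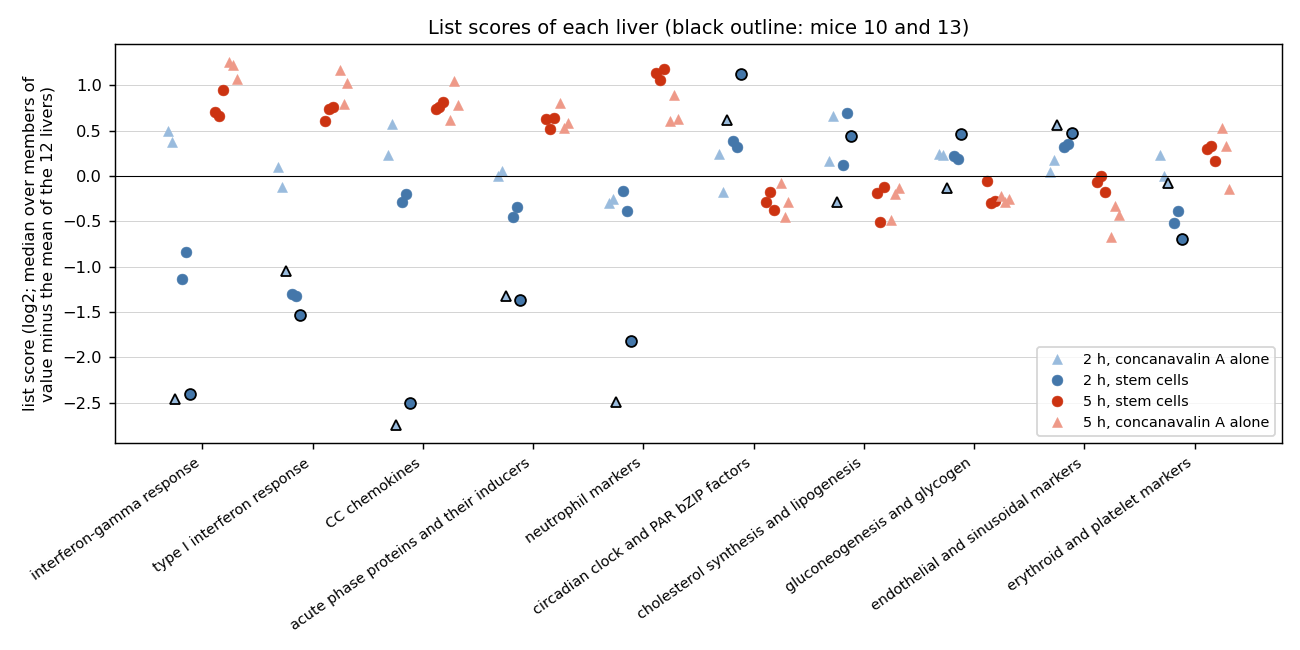
Scores of 10 gene lists in each of the 12 livers, on a log2 scale, as the median over the members of a gene's value minus its mean over these livers. Circles are stem cell treated livers and triangles livers with concanavalin A alone, and a black outline marks mice 10 and 13. Mouse 10 lies at -2.41 for the interferon-gamma list and at -2.50 for CC chemokines, below mice 8 and 9, while the 3 treated 5 h livers lie between 0.66 and 0.95 for the former.

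The promoters of the interferon genes with the largest rises are shown to set the sequence beside the change. They are the 250 bases before the RefSeq start on GRCm38.p6, written 5′ to 3′ on the gene's strand. Capitals mark an interferon-stimulated response element (ISRE, searched as GAAA, then NN, then GAAA) or an interferon-gamma activated site (GAS, searched as TTCNNNGAA), both searched on both strands. Ifit2 lies at chr19:34550444-34550693 on the plus strand (the upstream one of its 2 starts), Ifit1 at chr19:34640639-34640888 on the plus strand, Gbp2 at chr3:142620413-142620662 on the plus strand and Ubd at chr17:37193642-37193891 on the plus strand.
Ifit2: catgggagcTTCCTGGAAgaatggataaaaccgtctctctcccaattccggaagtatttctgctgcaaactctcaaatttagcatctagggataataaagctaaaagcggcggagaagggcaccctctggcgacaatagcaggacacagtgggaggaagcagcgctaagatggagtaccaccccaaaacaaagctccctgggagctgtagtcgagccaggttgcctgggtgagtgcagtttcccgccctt
Ifit1: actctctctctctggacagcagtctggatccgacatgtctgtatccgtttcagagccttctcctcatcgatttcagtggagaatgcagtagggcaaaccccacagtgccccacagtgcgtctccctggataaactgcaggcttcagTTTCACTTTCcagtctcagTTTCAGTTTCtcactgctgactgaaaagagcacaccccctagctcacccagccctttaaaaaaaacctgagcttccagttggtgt
Gbp2: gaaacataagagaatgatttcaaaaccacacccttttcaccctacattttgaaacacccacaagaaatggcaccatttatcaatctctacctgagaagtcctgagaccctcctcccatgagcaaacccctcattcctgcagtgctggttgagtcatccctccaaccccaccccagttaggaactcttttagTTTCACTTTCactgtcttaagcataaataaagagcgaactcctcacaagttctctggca
Ubd: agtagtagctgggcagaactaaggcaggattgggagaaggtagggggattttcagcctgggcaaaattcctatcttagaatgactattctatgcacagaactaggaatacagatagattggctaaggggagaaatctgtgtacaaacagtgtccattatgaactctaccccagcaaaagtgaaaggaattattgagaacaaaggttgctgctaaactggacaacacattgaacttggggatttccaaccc
Ifit1 held 2 ISRE matches, which begin 104 and 85 bases before the start, and Gbp2 held 1, which begins 59 bases before it. Ifit2 held a GAS match 241 bases before this start, and Ubd held no match to the 5 motifs searched, which says only that these letters are not in this window. Of the 25 type I interferon genes that rose, 18 had an entry in the table, with 22 promoters, and 7 of these (31.8%) held an ISRE match. Of 14 promoters of 13 interferon-gamma genes that rose, 5 (35.7%) held one. Among all 32851 promoters of the table the share was 2.98%, and among 1214 promoters of all genes that rose it was 5.11%. GAS matches occurred in 3 of the 14 (21.4%), against 7.02% of all promoters and 8.32% of those of all genes that rose. The share was similar, 4 of 22 (18.2%), for the type I interferon genes that rose. It was also 18.2% (2 of 11) for the clock genes that fell, so it was not particular to the interferon-gamma list. A match is a description of the sequence only.

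The cytokines that open this hepatitis did not differ beyond their spread. Ifng lay at 1.79, 2.20 and 0.39 at 2 h and at 2.61, 2.86 and 2.11 at 5 h, with overlapping groups and a change of 1.06 ± 0.81 (adjusted p = 0.401). Tnf gave 0.01 ± 0.90 with mouse 10 at -1.82 and mice 8 and 9 at 0.39 and 0.52, and it gave -0.75 without mouse 10. Il6 gave -0.05 ± 1.33 and Il1b, which encodes interleukin 1 beta, gave -0.56 ± 0.98, both with overlapping groups. In each of these genes mouse 10 was the lowest of the 6 livers. Il10, an anti-inflammatory cytokine, fell by 1.35 ± 0.26 (adjusted p = 0.00775), from -3.12, -2.81 and -2.24 to -4.56, -3.77 and -3.89, and by 1.11 without mouse 10. At 5 h 2 of 3 livers measured it, and the fall was 1.01 with values raised to the arrays' floor, the lowest signal among probes well above background. In livers with concanavalin A alone Il10 gave 0.16, and the difference between the 2 changes did not pass (adjusted p = 0.774).

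Of 18 measured T cell cytokines and activation receptors 2 rose (11.1%, near the 8.84% of all genes) and 0 fell. The costimulatory receptor Icos rose by 1.24 ± 0.23 from -1.59, -1.83 and -1.74 to -0.14, -0.24 and -1.05, and the TNF receptor family member Tnfrsf4, also called OX40, rose by 0.92 ± 0.24 (adjusted p = 0.09 without mouse 10). Among 16 myeloid cytokines 3 rose (18.8%) and 1 fell (6.25%), against 8.84% and 9.88% of all genes. Csf3, the granulocyte growth factor, was below background at 2 h and at least 4.19-fold higher at 5 h (limma, adjusted p = 0.00399). The alarmin Il33 rose by 1.57 ± 0.48 and Il27, a cytokine of antigen-presenting cells, rose by 0.92 ± 0.27. Neither of the last pair passed without mouse 10 (adjusted p = 0.097 and 0.064).

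Of 17 measured CC chemokines 5 rose (29.4%, against 8.84% of all genes) and 0 fell, with a median change of 1.73. Ccl11, the eosinophil attractant eotaxin, lay at -1.99, -1.63 and -6.53 at 2 h and at 2.18, 2.05 and 2.10 at 5 h. Its rise of 5.49 ± 1.66 (adjusted p = 0.044) was 3.92 and did not pass without mouse 10 (adjusted p = 0.15), and in mouse 10 it was not well above background. Ccl24, another eotaxin, rose by 3.21 ± 0.65 from 2.04, 2.62 and 1.42 to 5.01, 5.40 and 5.32, and Ccl8, a monocyte attractant, rose by 3.36 ± 0.61. Both passed without mouse 10 as well, and they were the only CC chemokines that did. The monocyte attractants Ccl2 (2.02) and Ccl7 (2.70) did not pass. The list's median was 1.19, 3.51 and 0.76 within slides 1, 2 and 3, and 0.94 without mouse 10. Among 11 CXC chemokines of neutrophils and tissue 1 fell (9.09%, near the 9.88% of all genes) and 0 rose. It was Cxcl12, the ligand of CXCR4, which fell by 0.82 ± 0.22 (adjusted p = 0.089 without mouse 10). Cxcl10, a target of interferon-gamma, lay at 8.69, 9.07 and 3.75 at 2 h and at 9.96, 9.61 and 9.92 at 5 h, a difference of 2.66 ± 1.87 that did not pass.

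All 20 measured NF-kB regulators lay above 0, as did 6105 of all 14410 genes, with a median of 1.58. Of the 20, 3 passed (15%, against 8.84% of all genes). Tnip2, an inhibitor of the pathway, rose by 1.95 ± 0.40, and its relative Tnip3 was below background at 2 h and at least 2.83-fold higher at 5 h (limma, adjusted p = 0.0078). Nfkb1 rose by 1.94 ± 0.53 by its brightest probe, where 2 of its 4 probes shared the sign, so that its change is uncertain. Without mouse 10 the median was 1.01 and 2 of the 20 rose. The median was 1.21, 2.85 and 0.67 within slides 1, 2 and 3, the largest on the slide that held mouse 10. Of 11 endothelial adhesion molecules 1 rose (9.09%, near the 8.84% of all genes), the junction protein gene F11r by 0.67 ± 0.17 (adjusted p = 0.089 without mouse 10).

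The list of acute phase proteins and their inducers rose. Of 34 measured members 14 rose (41.2%) and 0 fell, with a median of 1.43, and 32 lay above 0. Il1r1, the signalling receptor of interleukin 1, lay at 1.57, 1.62 and 1.00 at 2 h and at 4.98, 5.16 and 4.87 at 5 h. The harvests did not overlap, and the rise was 3.61 ± 0.48 (adjusted p = 0.00153). Apcs, serum amyloid P, rose by 1.98 ± 0.32 from 3.62, 3.81 and 3.01 to 5.52, 5.42 and 5.44. The protease inhibitor gene Serpina3n rose by 2.68 ± 0.71 (adjusted p = 0.099 without mouse 10), Fga, a fibrinogen chain, by 1.44 ± 0.26, and Lbp, which binds lipopolysaccharide, by 1.81 ± 0.38. Stat3, the factor through which interleukin 6 induces these genes, rose by 1.68 ± 0.35. A2m, a plasma protease inhibitor, was below background at 2 h and at least 4.4-fold higher at 5 h (limma, adjusted p = 0.00551). Hamp, the iron hormone hepcidin, rose by 1.42 ± 0.30 from 7.08, 6.37 and 7.26 to 8.51, 7.97 and 8.48.

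Other well known acute phase transcripts did not pass. Saa1, serum amyloid A, lay at 9.03, 9.23 and 4.54 at 2 h and at 10.80, 10.34 and 10.55 at 5 h (2.96 ± 1.46, adjusted p = 0.187). Lcn2, lipocalin 2, lay at 3.16, 3.44 and -1.31 at 2 h and at 7.35, 7.09 and 7.01 at 5 h (5.39 ± 1.92, adjusted p = 0.0765). In both, the groups did not overlap and mouse 10 lay far below mice 8 and 9. Without mouse 10 the acute phase list had 9 members up and a median of 1.01, and its median was 1.14, 2.05 and 0.77 within slides 1, 2 and 3. Of 26 coagulation and fibrinolysis genes 2 rose (7.69%, near the 8.84% of all genes). F3, tissue factor, the starter of coagulation, rose by 3.69 ± 0.78 from -0.21, -0.05 and -0.97 to 3.08, 3.59 and 3.16. Cpb2, a brake on fibrinolysis, rose by 0.62 ± 0.15 (adjusted p = 0.051 without mouse 10). Of 16 iron handling genes 2 rose and 2 fell, near the shares of all genes, and without mouse 10 1 rose and 0 fell. The importers Slc11a2 and Slc39a14 rose by 2.20 ± 0.34 and 1.87 ± 0.53, and the exporter Slc40a1, ferroportin, fell by 1.04 ± 0.27, while Ireb2, an iron sensor, fell by 0.58 ± 0.18. Of these 4, Slc11a2 passed without mouse 10 and the others did not.

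Marker genes of neutrophils were higher at 5 h. Of 19 measured markers 9 rose (47.4%, against 8.84% of all genes) and 0 fell, with a median of 1.76. Of the 19, 18 lay higher at 5 h without overlap between harvests, as did 2673 of all 14410 genes. Chil3, a granulocyte and macrophage chitinase-like protein, lay at -0.35, -0.99 and -1.98 at 2 h and at 2.01, 2.16 and 1.82 at 5 h, a rise of 3.10 ± 0.53 (adjusted p = 0.00478). The granule genes Ltf and Ngp rose by 2.60 ± 0.64 and 2.56 ± 0.57, neither of which passed without mouse 10 (adjusted p = 0.079 and 0.055). The summed linear level of the markers relative to the 75th percentile was 98.8 to 274 at 2 h and 571 to 717 at 5 h, with mouse 10 the lowest. Ly6g and Elane were not measured. In whole liver, fewer cells of a type and less RNA per cell cannot be told apart. Without mouse 10, 3 markers rose and the median was 1.29. The neutrophil markers moved with the acute phase and chemokine lists across the livers, and their part in those results was not tested.

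Markers of other immune cells moved less. Of 15 NK and cytotoxic markers 4 rose (26.7%, against 8.84% of all genes). Gzmb, granzyme B, rose by 3.28 ± 0.49 from -1.82, -1.64 and -2.37 to 1.33, 1.71 and 0.97. Gzma, granzyme A, rose by 1.21 ± 0.20, the receptor gene Klrk1 by 0.90 ± 0.12, and the T cell and NK chemokine Ccl5 by 0.53 ± 0.14 (adjusted p = 0.09 without mouse 10). Klrk1 gave -0.17 after another background correction (normexp). The summed level of this list was 6.02 to 7.88 at 2 h and 11.9 to 14.6 at 5 h. For T cells the summed level overlapped, with 17.0 to 19.3 against 11.9 to 22.6. Among 16 markers 1 rose and 1 fell (6.25% each). Cd8a rose by 1.08 ± 0.27, while the brightest probe named Cd8b1 fell by 0.65 ± 0.12. Both changed sign after normexp. Cd8a was measured in 1 of 3 livers at 2 h and did not pass without mouse 10 (adjusted p = 0.081). The 2 probes of Cd8b1 disagreed. The array files place the one used on chromosome 5 and that of Cd8a on chromosome 6. Whether the fall is one of Cd8b1 is therefore uncertain. Of 18 macrophage markers 2 rose (11.1%, near the 8.84% of all genes). These were the scavenger receptor Marco (1.18 ± 0.33) and the Kupffer cell gene Timd4 (0.56 ± 0.17), neither passing without mouse 10. The Kupffer cell marker Clec4f gave 0.12. Of 17 B cell markers 2 fell (11.8%, near the 9.88% of all genes). The IgM receptor Fcmr fell by 1.86 ± 0.30 and the adaptor Blnk by 1.39 ± 0.23. The list's summed level went from between 9.21 and 13.1 to between 6.92 and 7.22. The summed level of 19 dendritic cell and class II markers overlapped at 135 to 145 and 142 to 151. Of these markers 2 rose (10.5%, near the 8.84% of all genes), the costimulatory ligand Cd86 (1.37 ± 0.37) and the transcription factor Batf3 (2.16 ± 0.53). Neither of these passed without mouse 10.

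Circadian clock genes fell, some of them steeply. Of 23 measured members 12 fell (52.2%) and 2 rose, with a median change of -0.54. Dbp, a PAR bZIP output factor of the clock, lay at 5.57, 5.45 and 7.06 in mice 8, 9 and 10 and at -0.60, -0.68 and -0.65 in mice 1, 2 and 3. The 5 h livers lay close together and far below all 2 h livers, with mouse 10 the highest, and the fall was 6.67 ± 0.43 (adjusted p = 0.000107), a 102-fold difference. Its relatives Tef and Hlf fell by 3.60 ± 0.32 and 1.62 ± 0.29. Per3, a period gene of the clock's negative arm, was below background in all 5 h livers and at least 3.30-fold lower there (adjusted p = 0.000107). Ciart, a repressor of the CLOCK and BMAL1 pair, lay at -1.26, -2.65 and 1.44 at 2 h and was below background at 5 h, at least 9.15-fold lower (adjusted p = 0.0337, and 0.12 without mouse 10). Usp2, a clock-driven deubiquitinase, fell by 3.50 ± 0.47 and the repressor Cry2 by 2.90 ± 0.57.

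Members of the clock's positive arm and its opposite phase lay higher at 5 h. Nfil3, which competes with Dbp for its binding site, lay at 2.52, 2.09 and 2.43 at 2 h and at 4.75, 4.48 and 4.71 at 5 h, a rise of 2.29 ± 0.23 (adjusted p = 0.000416). Npas2, a partner of BMAL1, was below background at 2 h and at least 1.71-fold higher at 5 h (limma, adjusted p = 0.000353). Arntl, which encodes BMAL1 itself, lay at -2.11, -2.00 and -2.05 at 2 h and at 0.08, -0.39 and 0.21 at 5 h. These groups did not overlap, yet the difference of 2.02 ± 0.83 did not pass (adjusted p = 0.114). The error of the fit pools the spread of all 12 livers, those without cells included. It is therefore not the spread of the values printed here. The nuclear receptor Nr1d2 fell by 1.93 ± 0.18, whereas Nr1d1 gave -0.11 ± 1.14. Per1 fell by 1.83 ± 0.49 (adjusted p = 0.10 without mouse 10) and gave 0.26 in livers with concanavalin A alone. Of the 12 falls 8 were called without mouse 10, and the list's median stayed at -0.54.

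**Figure D3:**
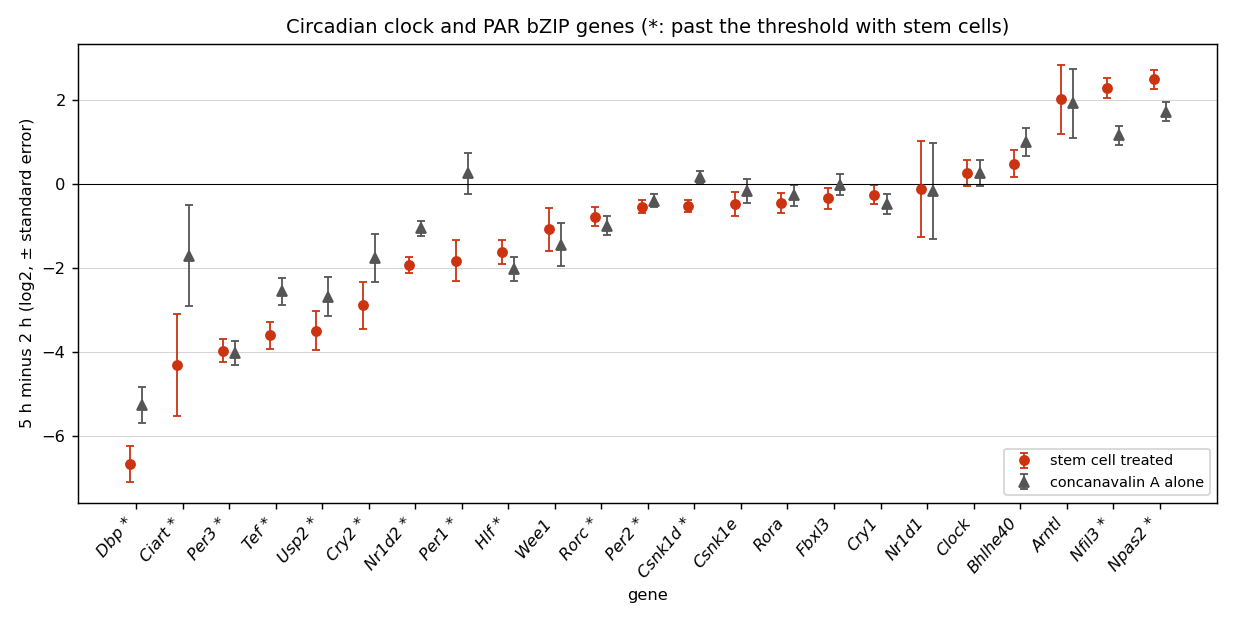
Change from 2 h to 5 h (log2, ± standard error of the fit) of the 23 measured clock genes in stem cell treated livers (circles) and in livers with concanavalin A alone (triangles). Dbp falls by 6.67 with stem cells and by 5.28 without, and Nfil3 rises by 2.29 and 1.16.

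The promoters of 3 clock genes, chosen by the largest fitted change alone, are shown to set the sequence beside the change. For Ciart and Per3 that change is known only as a bound, and Tef, measured at both harvests, is not shown. Dbp lies at chr7:45704997-45705246 on the plus strand, Ciart at chr3:95882229-95882478 on the minus strand and Per3 at chr4:151044666-151044915 on the minus strand of GRCm38.p6, again as the 250 bases before the RefSeq start. Capitals mark the E-box CACGTG bound by CLOCK and BMAL1, the D-box (searched as TTANGTAA) bound by Dbp, Tef, Hlf and Nfil3, or a GAS match.
Dbp: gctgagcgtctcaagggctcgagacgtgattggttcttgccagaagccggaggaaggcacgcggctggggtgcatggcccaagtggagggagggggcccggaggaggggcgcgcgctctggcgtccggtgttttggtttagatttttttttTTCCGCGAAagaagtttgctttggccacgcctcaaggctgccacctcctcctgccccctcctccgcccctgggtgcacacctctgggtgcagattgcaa
Ciart: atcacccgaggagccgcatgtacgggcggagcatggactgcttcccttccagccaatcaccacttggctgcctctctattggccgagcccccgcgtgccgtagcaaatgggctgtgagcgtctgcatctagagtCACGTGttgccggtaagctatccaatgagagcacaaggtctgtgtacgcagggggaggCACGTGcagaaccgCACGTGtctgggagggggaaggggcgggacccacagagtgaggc
Per3: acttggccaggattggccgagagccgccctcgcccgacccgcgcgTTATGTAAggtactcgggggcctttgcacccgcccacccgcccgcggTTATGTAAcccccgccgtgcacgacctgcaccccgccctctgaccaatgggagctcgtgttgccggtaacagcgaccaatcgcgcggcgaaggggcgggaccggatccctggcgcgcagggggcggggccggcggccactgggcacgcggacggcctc
Ciart held 3 E-boxes, which begin 116, 58 and 44 bases before the start. Per3 held 2 D-boxes, 205 and 158 bases before it. Dbp held a GAS match 99 bases before its start and no E-box or D-box in this window, which says only that these letters are not there. Of the 12 clock genes that fell, 9 had an entry, with 11 promoters, and 4 of these (36.4%) held an E-box, against 6.02% of all promoters and 8.64% of the 1528 promoters of all genes that fell. The D-box was found in 1 of the 11 (9.09%), against 2.06% of all. Matches on both strands of a palindrome were counted once.

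Some genes of glucose output and glycogen fell. Of 26 measured members 8 fell (30.8%) and 0 rose, with a median of -0.37. The other 18 were not called. Of the 26, 7 lay above 0, the highest at 3.42 without passing. G6pc, whose enzyme releases free glucose as the last step of gluconeogenesis, lay at 6.95, 5.75 and 6.84 at 2 h and at -0.99, -1.54 and -1.09 at 5 h. It had the largest change of all genes tested, -7.72 ± 0.67 (adjusted p = 0.000314), a 211-fold difference. Ppp1r3g, a glycogen-targeting subunit of protein phosphatase 1, fell by 5.82 ± 1.12 from 4.46, 2.22 and 4.97 to -2.54, -1.42 and -1.85. Irs1, an adaptor of the insulin receptor, fell by 3.09 ± 0.62, the coactivator Ppargc1a by 1.58 ± 0.28 and the insulin-regulated transcription factor Foxo1 by 1.17 ± 0.24. Glycogen synthase, Gys2, fell by 1.10 ± 0.21, and the glucose transporter Slc2a2 fell by 0.92 ± 0.26 (adjusted p = 0.11 without mouse 10). Klf15, a zinc finger factor of gluconeogenesis outside the list, fell by 4.33 ± 0.67 from 3.86, 3.61 and 4.83 to -0.27, -0.03 and -0.39. Fructose bisphosphatase, Fbp1, gave 0.11, so that the members of the pathway did not move together. Without mouse 10, 6 of the 26 fell.

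Lipid synthesis genes fell and fatty acid oxidation genes mostly did not pass. Of 26 cholesterol and lipogenesis genes 8 fell (30.8%), 0 rose and the median was -0.61, with 23 below 0. Srebf1, the master factor of lipogenesis, lay at 6.96, 6.46 and 7.59 at 2 h and at 4.93, 4.64 and 4.96 at 5 h, a fall of 2.16 ± 0.34 (adjusted p = 0.00346). The sterol carrier gene Stard4 lay at 3.47, 3.48 and 3.45 at 2 h and at 2.02, 2.07 and 1.85 at 5 h, a fall of 1.49 ± 0.14 (adjusted p = 0.000314). Both passed without mouse 10 as well, where 4 members of the list fell. Among 27 genes of PPAR alpha and fatty acid oxidation, Ppara itself fell by 2.75 ± 0.36 from 3.92, 3.40 and 4.21 to 1.26, 1.00 and 1.01, and the ketone enzyme Bdh1 fell by 0.66 ± 0.14. Pdk4, the kinase that holds pyruvate out of the citric acid cycle, rose by 2.60 ± 0.45 from 2.39, 2.88 and 2.09 to 5.42, 5.56 and 4.18. It gave -0.33 in livers with concanavalin A alone, and the difference of 2.93 between the changes did not pass (adjusted p = 0.529). The median of the oxidation list was 0.00.

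Of 31 genes of cytochrome P450, bile acids and transporters 3 fell (9.68%) and 0 rose, close to the share of all genes. Cyp2a5, a xenobiotic hydroxylase, fell by 1.40 ± 0.24, the canalicular organic anion transporter gene Abcc2 by 0.70 ± 0.15, and Cyp1a1 was below background at 5 h and at least 2.15-fold lower (adjusted p = 0.0003). The list's median of -0.24 turned to 0.15 after normexp. Of 25 urea cycle and amino acid genes 0 passed in limma and 3 had an unadjusted p under 0.05, with a median of -0.13. Aass, an enzyme of lysine breakdown, gave 0.53 ± 0.19 (adjusted p = 0.0729). Hepatocyte markers did not pass either, 0 of 18 and 3 at an unadjusted p under 0.05, with a median of 0.04 and summed levels of 7923 to 9490 at 2 h and 8454 to 11809 at 5 h. Alb gave 0.14 ± 0.21.

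Cell death genes rose, with 9 of 27 up (33.3%), 0 down and a median of 0.69. Mlkl, the pore-forming executor of necroptosis, lay at -0.16, 0.03 and -0.22 at 2 h and at 2.46, 2.74 and 2.79 at 5 h, a rise of 2.78 ± 0.37 (adjusted p = 0.00153). Casp8, the caspase of death receptors, rose by 1.20 ± 0.23 and the death receptor Fas by 2.03 ± 0.53 (adjusted p = 0.098 without mouse 10). The survival gene Bcl2l1, which encodes BCL-XL, rose by 1.33 ± 0.34 (adjusted p = 0.075 without mouse 10). The cell cycle inhibitor Cdkn1a rose by 3.60 ± 0.87 from 1.17, 0.56 and -1.36 to 4.05, 3.66 and 3.45 (adjusted p = 0.073 without mouse 10), and Gadd45a, a growth arrest gene, rose by 0.88 ± 0.19. Of 21 cell cycle genes 1 rose (4.76%, below the 8.84% of all genes), the helicase subunit Mcm4 by 1.03 ± 0.26 (adjusted p = 0.079 without mouse 10). Without mouse 10, 6 cell death genes rose.

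Stress and immediate early genes were called at about the rate of all genes (8.84% higher and 9.88% lower). Of 25 immediate early genes 2 rose (8%) and 2 fell (8%). Nr4a1, an orphan nuclear receptor induced within an hour, fell by 2.05 ± 0.35, and Egr3, a zinc finger factor, was below background at 5 h and at least 2.9-fold lower (adjusted p = 0.00153). Jun, a subunit of AP-1, rose by 0.79 ± 0.17, and its partner Fosl1 was at least 4.04-fold higher at 5 h (limma, adjusted p = 0.002). Among 26 genes of the unfolded protein and amino acid stress response, Herpud1, an endoplasmic reticulum degradation factor, fell by 2.39 ± 0.45 from 6.50, 6.10 and 6.72 to 3.78, 4.30 and 4.08. Xbp1, a transcription factor of that response, rose by 1.44 ± 0.26, the asparagine synthetase gene Asns by 1.46 ± 0.31 and the glutathione-degrading enzyme gene Chac1 by 1.24 ± 0.37 (adjusted p = 0.078 without mouse 10). In all, 3 of the 26 rose (11.5%) and 1 fell (3.85%). Of 22 heat shock chaperone genes 2 rose and 2 fell (9.09% each), Bag3 and Hspb8 by 1.59 ± 0.43 and 1.07 ± 0.23 up, Dnajb4 and Cryab by -1.32 ± 0.38 and -0.67 ± 0.19. Of these 4, Hspb8 passed without mouse 10 and the others did not. The inducible Hsp70 gene Hspa1a lay at -1.48, -2.00 and -2.56 at 2 h and at -1.11, -1.09 and 1.03 at 5 h, which did not pass (1.62 ± 0.81, adjusted p = 0.193). Of 22 metallothionein and antioxidant genes 3 rose (13.6%), Sod2 by 1.19 ± 0.28, Txnrd1 by 1.12 ± 0.27 and Gsr by 0.57 ± 0.13, none of which passed without mouse 10.

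Endothelial markers fell in 6 of 24 cases (25.0%), with a median of -0.35 and summed levels of 109 to 123 at 2 h and 75.6 to 101 at 5 h. Without mouse 10, 2 fell, Gpr182 and Kdr. Gpr182, a receptor of sinusoidal endothelium, lay at 2.85, 2.62 and 3.28 at 2 h and at 0.57, 0.29 and -0.24 at 5 h, a fall of 2.71 ± 0.45 (adjusted p = 0.00399). Egfl7, secreted by endothelium, fell by 1.71 ± 0.52, the lymphatic and sinusoidal VEGF receptor Flt4 by 0.84 ± 0.26 (adjusted p = 0.14 and 0.087 without mouse 10), and Kdr by 1.29 ± 0.27, although the 2 probes of Kdr disagreed. The pan-endothelial genes Pecam1 and Cdh5 gave 0.43 and 0.49. Of 20 stellate, fibroblast and stromal markers 3 rose and 3 fell (15% each, against 8.84% and 9.88% of all genes). The basement membrane collagen Col4a1 rose by 2.11 ± 0.38, the matrix protein gene Postn by 1.08 ± 0.13, and Lrat and Pdgfrb of stellate cells fell by 2.12 ± 0.53 and 1.97 ± 0.60. Neither passed without mouse 10 (adjusted p = 0.079 and 0.14), where 3 markers rose and 0 fell. Col1a1 gave 0.14. Of 17 stromal immunoregulatory mediators 3 rose (17.6%) and 2 fell (11.8%), against 8.84% and 9.88% of all genes. Among them were the prostaglandin synthase Ptgs2 up by 2.98 ± 0.79 (adjusted p = 0.089 without mouse 10, not well above background in 1 of 3 livers at 2 h), the metalloprotease inhibitor Timp1 up by 2.05 ± 0.32 and the activin subunit Inhba down by 1.32 ± 0.33. The arrays cannot tell transcripts of the given cells from those of the host, since both came from C57Bl/6 mice.

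Erythroid genes rose. Hba-a1, an alpha globin chain, lay at 6.42, 6.04 and 6.48 in mice 8, 9 and 10 and at 7.76, 8.10 and 7.83 in mice 1, 2 and 3, a rise of 1.58 ± 0.18 (adjusted p = 0.000881). The beta globin gene Hbb-bt rose by 1.22 ± 0.25, the haem synthesis gene Alas2 by 0.93 ± 0.20 and the red cell membrane transporter Slc4a1 by 2.18 ± 0.48 (adjusted p = 0.055 without mouse 10), and Hemgn, an erythroid nuclear protein, was at least 3.44-fold higher (adjusted p = 0.00691). In all, 5 of 17 erythroid and platelet markers rose (29.4%, against 8.84% of all genes) and 0 fell. Their median was 0.69, and -0.26 after normexp, and the platelet genes Ppbp and Pf4 gave 0.49 and 0.69 without passing. The summed level was 207 to 303 at 2 h and 603 to 709 at 5 h. It was 462 to 593 at 2 h and 448 to 695 at 5 h with concanavalin A alone, where the groups overlapped and Hba-a1 gave 0.17. Of 9 cholangiocyte markers 2 rose (22.2%). Sox9, a bile duct and progenitor factor, rose by 2.96 ± 0.84 and Cd24a by 1.18 ± 0.28, both with mouse 10 the lowest and neither passing without it.

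The largest single changes include genes of no list. Mmp13, a collagenase of tissue remodelling, lay at -2.81, -2.48 and -6.25 at 2 h and at 1.45, 2.21 and 2.26 at 5 h. It had the largest rise among the genes named, 5.82 ± 1.50 (adjusted p = 0.0242), which was 4.62 and did not pass without mouse 10 (adjusted p = 0.091), and in mouse 10 it was not well above background. Crybb3, a lens crystallin gene, rose by 4.38 ± 0.45 from -1.37, -1.94 and -2.05 to 2.60, 2.75 and 2.42, and Tacc2, which encodes a centrosomal coiled-coil protein, rose by 3.96 ± 0.62. Steap1, of the STEAP family of membrane proteins, rose by 4.11 ± 0.83, the channel family gene Calhm6 by 4.00 ± 1.25 (adjusted p = 0.17 without mouse 10), and the apolipoprotein L gene Apol8 was at least 3.66-fold higher at 5 h. Among the falls, Spata2l and the potassium channel gene Kcnk5 were each measured in 1 of 3 livers at 5 h. Their fitted falls were 5.58 ± 1.11 and 5.45 ± 0.44. With values raised to the arrays' floor they fell by 5.38 and 4.63. Tob1, an antiproliferative factor, fell by 4.83 ± 0.68, Tiam2, an exchange factor of Rac measured in 2 of 3 livers at 5 h, by 4.35 ± 0.39 and the succinate receptor Sucnr1 by 3.61 ± 0.56. The lectin gene Clec2h, the growth arrest gene Gas1, Exoc3l2 of the exocyst family and the zinc finger gene Zfp467 were below background at 5 h and at least 10.8-, 6.62-, 9.62- and 6.85-fold lower. Zfp467 did not pass without mouse 10 (adjusted p = 0.089).

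**Figure D4:**
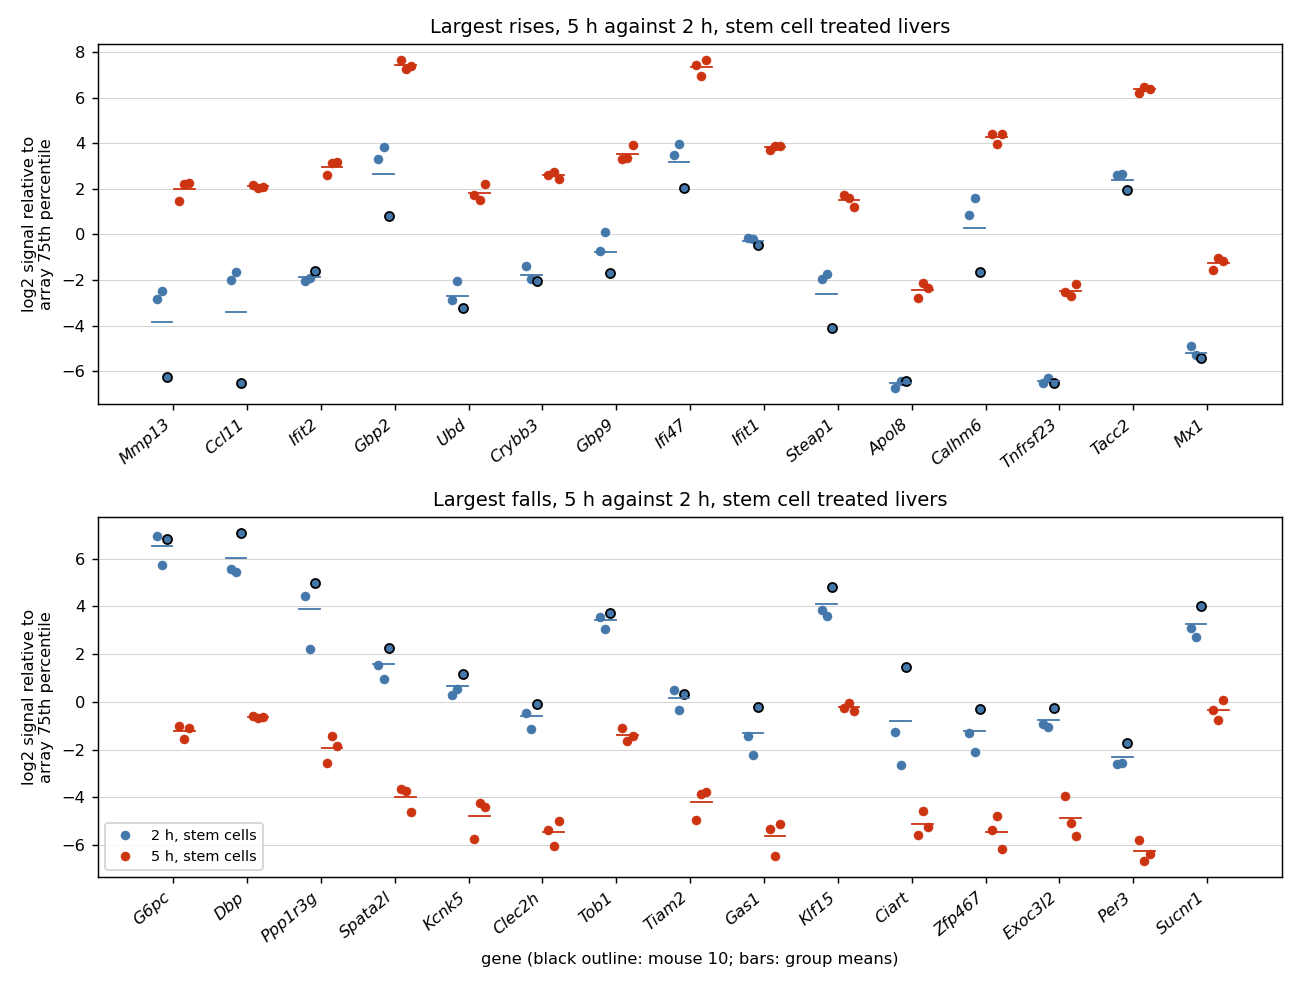
Log2 signal minus the 75th percentile of its array, in each of the 6 stem cell treated livers. Shown are the 15 largest called rises (top) and the 15 largest called falls (bottom) among genes without overlap between groups. Clone and model names were left out. Points are mice, bars group means and the black outline marks mouse 10, which lies below mice 8 and 9 in Mmp13 (-6.25) and Ccl11 (-6.53) and above them in Dbp (7.06).

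The same harvests were then set beside each other in livers given concanavalin A alone, where 944 genes rose (6.55%) and 1347 fell (9.35%). Of the 2698 genes called with stem cells, 1486 were called there as well, which is 55.1% of the former and 64.9% of the 2291 called without cells. The direction was shared in 1485 of these, 684 up and 801 down, and the exception was Zfp654 (-0.58 with cells and 0.60 without). Of all 2698, 2607 (96.6%) had the same sign without cells. Their median size of change was 1.07 with stem cells and 0.825 without. Across the 14410 genes the changes correlated at r = 0.796, where the points share the slides and the array design.

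**Figure D5:**
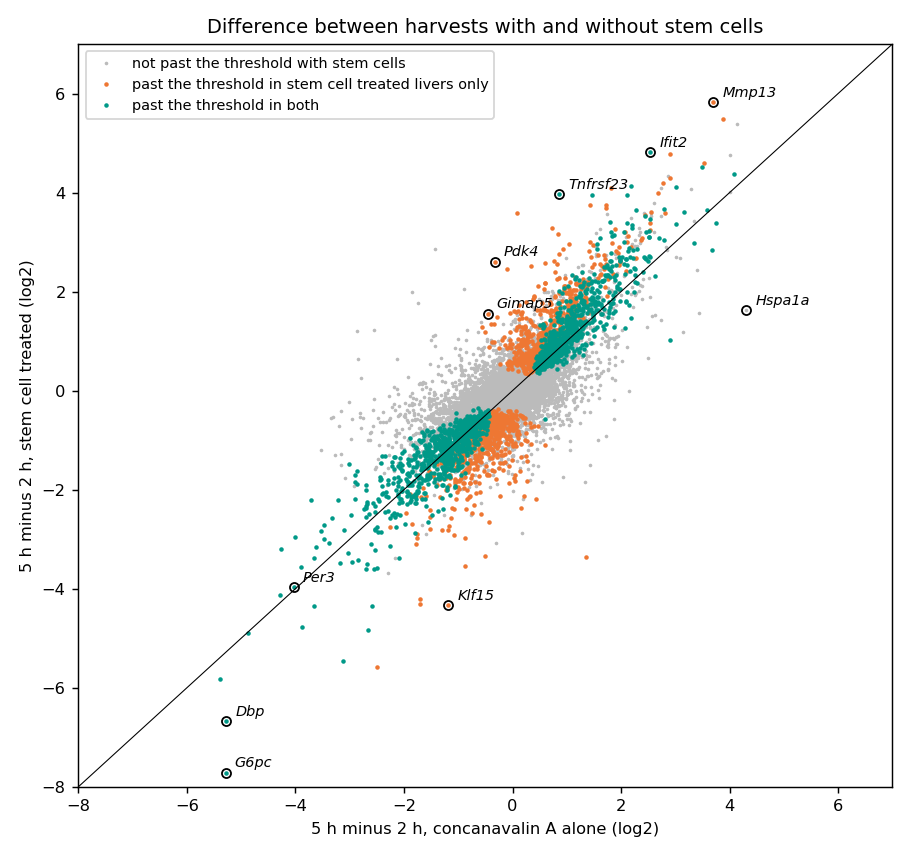
Change from 2 h to 5 h of each of 14410 genes in stem cell treated livers against the change with concanavalin A alone, both log2, with the line of equal change. Points gather along the line, with 1486 genes past the threshold in both. Tnfrsf23 (3.97 and 0.85) and Pdk4 (2.60 and -0.33) lie above the line.

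Side by side, the type I interferon list had 25 of 30 members up with stem cells and 21 without, with medians of 2.24 and 1.47, and the interferon-gamma list had 21 and 12 of 34, with medians of 2.38 and 1.75. For the clock list the falls were 12 and 7 of 23, for the endothelial list 6 and 10 of 24, and for neutrophil markers the rises were 9 and 5 of 19. Of the erythroid list 5 of 17 rose with cells and 0 without, with medians of 0.69 and 0.25. The test of the difference between the changes called 2 of 14410 genes (0.0139%), and 668 had an unadjusted p under 0.05 (4.64%). Tnfrsf23, which encodes a decoy receptor for TRAIL, lay at -6.51, -6.29 and -6.53 at 2 h and at -2.53, -2.70 and -2.19 at 5 h with stem cells, and at -3.85, -3.59 and -4.21 and then -2.59, -3.41 and -3.09 without. The 2 h livers with cells were the group below background, and it was at least 3.56-fold higher at 5 h. Gimap5, a GTPase gene of lymphocytes, lay at -0.17, -0.09 and 0.19 at 2 h and at 1.70, 1.48 and 1.41 at 5 h with stem cells, a rise of 1.55 ± 0.17 (adjusted p = 0.000608), against -0.46 without. The fitted difference was 3.12 ± 0.33 for Tnfrsf23 (adjusted p = 0.032), which rests on 2 h values below background. With values raised to the arrays' floor it was 1.14, and after normexp -0.14. The difference for Gimap5 was 2.01 ± 0.23 (adjusted p = 0.0358). With the slide as a block neither passed (adjusted p = 0.182 and 0.217), and 0 genes were called.

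No list member passed the test of the difference. An unadjusted p under 0.05 was found for 7 of 23 clock genes (30.4%), 5 of 17 erythroid and platelet markers (29.4%), 5 of 20 stromal markers (25.0%), 4 of 19 dendritic cell and class II markers (21.1%), 6 of 30 type I interferon genes (20%) and 5 of 26 unfolded protein genes (19.2%), against 4.64% of all genes. The 6 interferon genes (Mx1, Ifit2, Cmpk2, Rsad2, Ifit3 and Ifit1) had the larger rise with stem cells, Ifit2 at 4.82 against 2.54. The 5 erythroid markers were those named above, with Hba-a1 at 1.58 against 0.17. The 5 unfolded protein genes (Sdf2l1, Creld2, Ddit3, Pdia6 and Dnajb11) all had the lower change with stem cells, Creld2 at 0.26 against 1.83. These shares rest on unadjusted p-values and were not tested as lists. The adjusted p of Hba-a1 was 0.36 and that of Ifit2 0.816, so that neither is shown to differ.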

How the data were processed

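RNA of each liver was hybridised to a 1-colour Agilent mouse array, and the deposited intensity of each spot is the processed, background-subtracted signal that the authors' scanner software wrote (Feature Extraction, version 10.5.1.1 in the file headers). Control spots and outlier-flagged spots were left out, log2 was taken, and each array's 75th percentile was subtracted. A probe was kept when 3 or more of the 12 livers had it well above background, and a gene was its kept probe with the highest mean. Probes were named through RefSeq accessions, then symbols, and 7090 of 41174 probes had no name.

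The 12 livers in 4 groups of 3 were fitted together with limma 3.58.1 in R 4.3.3 (lmFit and eBayes, 2-sided), with p-values adjusted by Benjamini-Hochberg over 14410 genes and a threshold of 0.05. Errors printed after ± are standard errors of this fit. The labels number the mice, and each liver is 1 animal. A gene below background on all arrays of a group is given as "at least N-fold", the bright group's mean against the dim group's mean of the higher of the array's lowest measured signal and the probe's own. The adjusted p beside such a bound is that of the fit to the values as read, and it does not test the bound. The steps were tested on simulated data.

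Genes were named by rule: the 15 largest called rises and the 15 largest falls without overlap between groups, up to 4 called members of each of 36 lists (or the 2 with the smallest p), a fixed panel of cytokines and liver genes, and the genes with the smallest p for the difference between changes. Other list members were named after their values were seen. The members and lists were chosen with earlier results of these data known, and lists are described by counts and medians, not tested. Alternatives covered scaling, background correction, filters, probe averaging, slide as a block, array weights and each liver left out. The number of arrays limits the precision. Some genes that the rule names are not reported here. Changes with values raised to the arrays' floor, and list counts without mouse 10, were added after seeing the data.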

Additional observations from a re-analysis of the deposited data

Results flagged for a closer look

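Tnfrsf23 and Gimap5 are given here because their change from 2 h to 5 h differed between livers with and without stem cells by the test of the difference itself. The fitted difference was 3.12 ± 0.33 for Tnfrsf23 (limma, adjusted p = 0.032), but it rests on 3 livers, those given cells at 2 h, that were all below background. With values raised to the arrays' floor it was 1.14, and after normexp it was -0.14, so its size is not measured. For Gimap5 it was 2.01 ± 0.23 (adjusted p = 0.0358), from a change of 1.55 with cells and -0.46 without. With the mean of its probes it was 1.49 (adjusted p = 0.895). With the slide as a block the adjusted p was 0.182 for Tnfrsf23 and 0.217 for Gimap5.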

How the results depend on the processing

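The count of genes called between harvests in livers given cells was 2698, and it ran from 1951 to 3057 under quantile or median scaling, no or a stricter filter on dim probes, probe means, slide as a block, a trend in eBayes, the 6 livers alone, and without mice 10 and 13. It was 835 after normexp and 4451 with array weights. Leaving out 1 liver gave 1306 to 1880, with 1306 without mouse 10, 1348 without mouse 2 and 1353 without mouse 3. With concanavalin A alone 2291 genes were called, 295 after normexp, 1381 with no filter, and 905 to 2385 without 1 liver (1406 without mouse 13, 905 without mouse 4, 907 without mouse 6). For the difference between the changes, limma called 2 genes, beside 668 at an unadjusted p under 0.05. It was 0 with median scaling, normexp, no filter or the slide block, 1 with probe means or a trend, 3 with array weights, and 0 to 22 without 1 liver (22 without mouse 13, 1 without mouse 4, 0 without any other). Of the named genes' values under the alternatives, 1878 kept their direction and side of the threshold, 361 lost the call, 11 gained it and 17 changed sign, as did 1 difference between changes. After normexp these were Asgr2 at 0.035, Cd8a at -0.26, Cd8b1 at 0.0022, Klrk1 at -0.17, Tnf at -0.0037, Il6 at 0.073, Reg3g at -0.41 and the Tnfrsf23 difference at -0.14. Tnf was -0.018 with quantile scaling, -0.58 with array weights, and -0.75 to 0.42 without 1 liver, below 0 without mouse 10, 1 or 2. Il6 was 0.0053 with median scaling, and -0.70 to 0.40 without 1 liver, above 0 without mouse 8 or 9. Alb was -0.21 with quantile scaling and -0.026 to 0.27 without 1 liver, below 0 without mouse 1. Of 576 list medians under the alternatives 58 moved by more than the spread, 19 of them after normexp. Of the 576, 42 had the opposite sign to the main fit. The cause was not tested. No paired analysis was possible because the groups are different mice and share no replicate number. With the slide as a block, which groups arrays and not animals, 2659 genes were called, and the calls of Il33, Ccl11, Marco, Timd4, Cd86, Ciart, Per1, Chac1, Bag3, Egfl7, Pdgfrb, Sox9 and Calhm6 were lost (adjusted p = 0.0506 to 0.0705). Dim genes are limited by signal over background, and with 3 livers a group 1 liver can decide a call.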
